A study of Glycine max with 18 samples.

Results

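A group of 180 of the 51546 gene loci measured in developing soybean (Glycine max) had its highest transcript level in embryos of the cotyledon stage and far lower levels at every later stage. The loci were chosen by these measured values. A member had a mean value of at least 10 over the 3 cotyledon-stage libraries, and this mean was at least 5 times the mean of each of the other 5 stages. The high level at the cotyledon stage is therefore a consequence of the choice, and every ratio to that stage below is a description without a test. The same rule with another stage as the high one chose 42 loci for early maturation, 105 for mid maturation, 61 for late maturation, 111 for dry seed and 1828 for seedlings.

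The series held messenger RNA profiles of the cultivar Williams 82, grown in a greenhouse, from 18 libraries at 6 stages with 3 biological replicates each. Cotyledon-stage embryos were dissected from seeds with a length of 2.5 to 3.5 mm and early maturation embryos from seeds of 6 to 7 mm. Mid maturation embryos came from seeds with a weight of 200 to 250 mg. Late maturation material came from seeds that had turned fully yellow, at 230 to 500 mg, and the protocol mentions both embryo and seed coat for it. The other two stages were mature dry seed, labelled as seed, and seedlings at 8 days after sowing, a time that the sample titles give as 8 DAI. The protocol describes the seedlings as whole, whereas their column headings contain the letters COT. Polyadenylated RNA was selected for the libraries. No plant carried a transgene or received a treatment that the labels name.

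In legume seeds the cotyledon stage is the time when the embryo body is laid out, the cotyledons grow mainly by cell division, and cells take on their tissue identities. Cell division then ceases and the cotyledon cells expand and fill with storage protein and oil during maturation, after which the seed dries and rests. Germination brings cell division, cell expansion and photosynthetic growth back in the seedling. Which of these activities the 180 loci serve cannot be stated, because the deposited files give identifiers without names, and a RefSeq table of 59048 soybean genes (assembly v4.0) matched 0 of the 51546 identifiers. Lists of cell cycle, hormone, cell wall and transcription factor genes, markers of embryo, endosperm and seed coat, promoter motifs and protein features were therefore not analysed here, and the stage labels were not checked against defining markers.

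A value is the read count of a locus relative to the total of its library, in CPM (a count scaled to a common library total), after the authors' scaling between libraries. Values are not corrected for transcript length, so levels are compared between stages of a locus and not between loci. The libraries held 3572134 to 8776240 reads, with the smallest library in mid maturation and the 3 dry seed libraries at 4051230 to 4942973. A locus without a read in a library may have had a value of up to 3 reads there, which is 0.263 to 1.30 depending on the library. Many soybean genes have a near-identical copy, and how reads shared by copies were counted is not given in the sources used here, so the value of any single locus is uncertain. In these bulk samples, fewer cells of a type and less RNA per cell cannot be told apart. The stages also differ in the material taken (embryo, seed or seedling), so a difference of stage and a difference of tissue cannot be told apart.

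A subset of 17 of the 180 members owed its place to 1 library. In cotyledon replicate 3 each of these loci had at least 5 times the value of the higher of the other two replicates, with ratios from 7.73 to 39.4 and a median of 21.5. Among the other 163 members the highest such ratio was 1.89. The median value of the 17 loci was 2.11 in cotyledon replicate 1, 2.87 in replicate 2 and 45.4 in replicate 3. Their summed value was 43.3, 58.9 and 1027 in the same order. Over all 51546 loci, 49 had a value of at least 10 in cotyledon replicate 3 and at least 5 times that of both other replicates, while 0 did so in replicate 1 and 0 in replicate 2. Elsewhere in the series this pattern occurred at 22 loci in late maturation replicate 1, 9 in dry seed replicate 1, 3 in late maturation replicate 3 and 2 in seedling replicate 2, and at no locus in the other libraries.

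As examples chosen after their values were seen, Glyma.14G033000 had values of 3.76, 5.74 and 139.2 in cotyledon replicates 1 to 3. Glyma.14G052700 had 5.57, 6.21 and 105.1. Both reached 10 in replicate 3 alone. Their values in replicates 1 and 2 were still above every value of the other stages, which were at most 1.52 and 0.899. For the 17 loci the library medians in early maturation were 0.319, 0.360 and 0.217, also below their medians in cotyledon replicates 1 and 2. The 17 loci were low in every other stage, with stage means of at most 3.54, 3.28 and 0.363 through early, mid and late maturation, 1.42 for dry seed and 0.345 for seedlings. Without cotyledon replicate 3 the rule chose 168 loci, of which 159 were among the 180, so 21 members were lost and 9 loci were gained. What set these loci apart in replicate 3 was not tested. The results below are given for all members and, where it matters, for the 163.

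**Figure D1:**
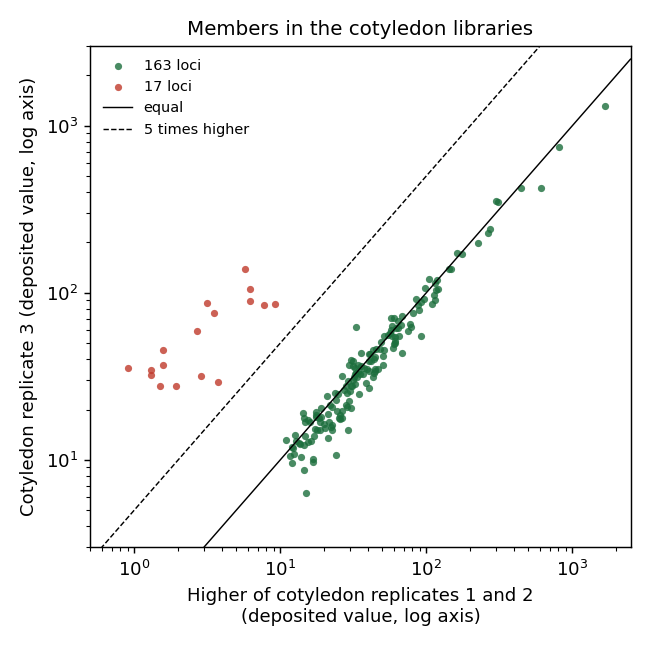
Value of each of the 180 members in cotyledon replicate 3 (vertical, log axis) against the higher of its values in replicates 1 and 2 (horizontal, log axis); lines mark equal values and 5 times higher values. The 163 loci lie near the line of equality, with a ratio of at most 1.89, and the 17 loci lie above the dashed line, with ratios from 7.73 to 39.4.

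The other 163 members, left after the loci of replicate 3 were set aside, had similar values in the 3 cotyledon libraries. Their median value was 32.7 in replicate 1, 31.4 in replicate 2 and 33.2 in replicate 3, and the highest of the 3 values was less than 2 times the lowest for 160 of them. The median coefficient of variation over the 3 cotyledon libraries was 10.9%, compared with 8.28% for the 15909 loci with a cotyledon mean of at least 10. Replicate 1 was the highest cotyledon library for 93 of the 163 members (57.1%) and replicate 2 for 22 (13.5%). Over the 15909 loci these shares were 44.2% and 30.7%, so the members leaned more to replicate 1 and less to replicate 2. The highest value was less than 2 times the lowest for 98.2% of the 163 and 99.5% of the 15909.

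The choice of members was also repeated on 2 replicate numbers and read in the libraries of the number left out. With number 1 left out, 187 loci were chosen, and in the replicate 1 libraries the cotyledon value was the highest of the 6 stages for 184 of them. With number 2 left out it was 180 of 180, and with number 3 left out 182 of 182. Over all loci with a read, the cotyledon library was the highest of its replicate number for 16.2%, 17.4% and 18.1% of loci in the same order. Those loci were not matched to the loci chosen in cotyledon level, so these counts are a description without a test. The full rule, with both limits, was met in the left-out libraries by 123, 129 and 115 of the loci chosen. Over all 51546 loci it was met there by 186, 194 and 188. The counts among the loci chosen are 65.8%, 71.7% and 63.2% of them. A locus that meets the full rule there also has its highest value in the cotyledon library. These counts therefore cannot exceed those for the direction alone.

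Cotyledon means of the 180 members ranged from 10.1 to 1527, with a median of 32.1 and quartiles of 17.6 and 54.4, and 19 members had a mean of at least 100. The members together held 1.52% ± 0.0929 (SD, n = 3) of the reads of a cotyledon library. The locus with the highest mean made up 13.7% of the summed cotyledon mean of the 180, and the 10 highest made up 41.9%. The ratio of the cotyledon mean to the next highest stage mean had a median of 7.58 and a maximum of 342, and 53 members had a ratio of at least 10. For the 163 loci alone the median ratio was 7.09, the highest was 167 and 38 had a ratio of at least 10. The members nearest to the limits had cotyledon means of 10.1 and 10.2 or ratios of 5.01 and 5.02. The loci just outside had means of 9.78 and 9.91 or ratios of 4.98 and 4.99.

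The lower level after the cotyledon stage was a graded one. The median of the members' stage means was 32.1 for cotyledon-stage embryos, then 3.42, 1.15 and 0.311 for early, mid and late maturation. It was 0.0861 for dry seed and 1.60 for seedlings. Relative to its own cotyledon mean, the median member stood at 12.2%, 3.65% and 0.845% through early, mid and late maturation, at 0.241% in dry seed, and at 4.80% in seedlings. The 180 loci together held 0.148% ± 0.0209 of the reads of an early maturation library, 0.0388% ± 0.00351 at mid and 0.0171% ± 0.00680 at late maturation (SD, n = 3 each). The share was 0.00940% ± 0.000825 for dry seed and 0.0766% ± 0.00719 for seedlings (SD, n = 3 each). Among these 5 stages the lowest share lay in dry seed and the highest in early maturation. These shares refer to each library's own total and leave out the scaling between libraries. As summed scaled values the members had 607 ± 51.6 in mid maturation and 566 ± 64.4 in seedlings (SD, n = 3 each). The order of these stages thus differs between the measures.

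**Figure D2:**
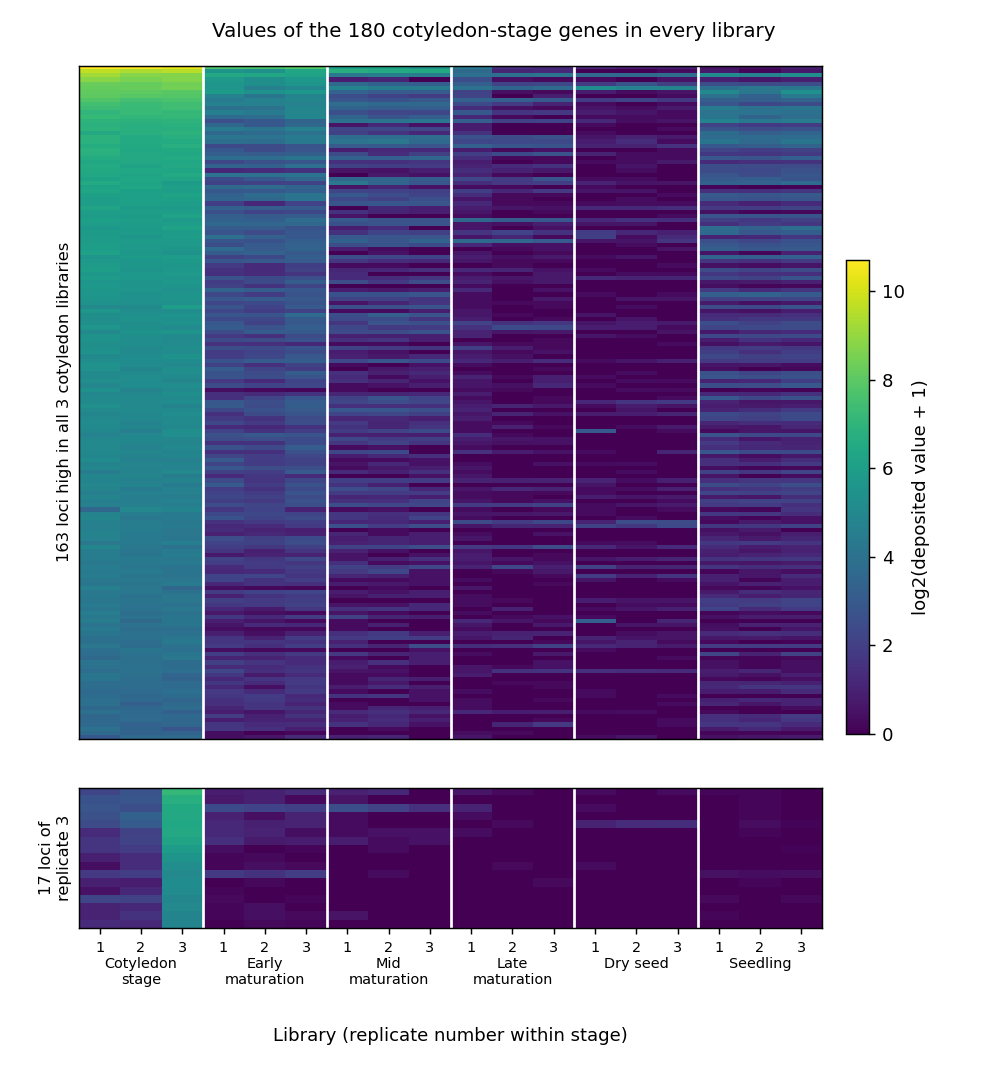
Values of the 180 members (rows, sorted by cotyledon mean within each block) in the 18 libraries (columns, 3 per stage), as log2(deposited value + 1). The upper block holds the 163 loci that were high in all 3 cotyledon libraries, and the lower block the 17 loci that reached 10 in replicate 3 alone. The median member stood at 12.2% of its cotyledon mean in early maturation, 0.241% in dry seed and 4.80% in seedlings.

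The working description of these loci as silenced after the cotyledon stage holds for some stages and members only. In early maturation every member had at least 1 read, 25 members still had a mean of at least 10 and 24 had a mean below 1. In mid maturation 10 members had no read in any of the 3 libraries and 83 had a mean below 1. In late maturation the same numbers were 22 and 142, and in dry seed 65 and 157. In seedlings 9 members had no read, 74 had a mean below 1 and 13 had a mean of at least 10. A dry seed library with no read of a locus allows a value of up to 0.701 to 0.791. Over the 15 libraries of the other stages the median member had 172.5 reads in all, and 5 members, all among the 17 loci of replicate 3, had at most 3.

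Members differed in the stage at which the residual level was highest. Early maturation ranked second after the cotyledon stage for 131 members, whose median mean there was 4.22. Seedlings ranked second for 28 members, with a median of 3.39 in seedlings, 2.58 in early maturation and 0.0870 in dry seed. Mid maturation ranked second for 15 members, late maturation for 4 and dry seed for 2. The lowest of the 5 stages was dry seed for 120 members and late maturation for 40. By stage means, 102 members were lower at each step from early maturation to dry seed, and 154 were higher in seedlings than in dry seed.

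**Figure D3:**
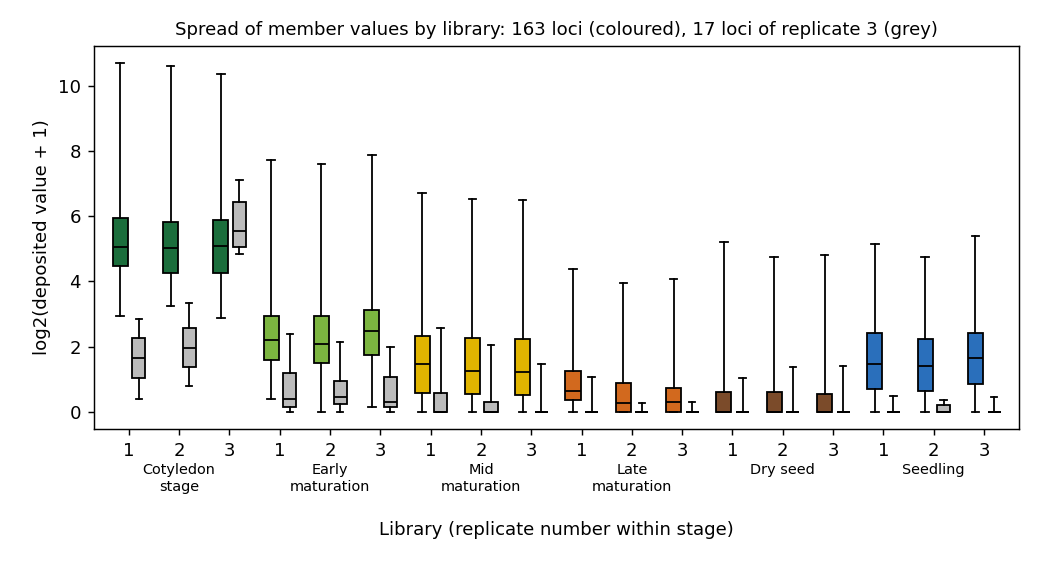
Spread of values in each library as log2(deposited value + 1), for the 163 loci (coloured) and the 17 loci of replicate 3 (grey); the line is the median, the box spans the quartiles and the whiskers reach the lowest and highest member. The coloured medians step down from the cotyledon stage to dry seed, where they are 0 in all 3 libraries, and are higher again in seedlings.

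The 5 comparisons of other stages, without cotyledon libraries, were tested with limma on log2(value + 1) over all loci that reached a value of 1 in 3 or more libraries. The filter passed 36872 loci and 176 of the 180 members, and the 4 members that failed it were among the 17 loci of replicate 3. The cotyledon libraries alone can carry a member through this filter, and 154 members met it outside them. Over these 154 and the 36361 loci that met it there, a setting added after seeing the data, the shares called lower were 48.7% and 14.8% in mid against early maturation, 35.7% and 23.9% in late against mid, 12.3% and 14.7% in dry seed against late, and 39.6% and 23.1% in seedlings against early maturation. The shares called higher in seedlings against dry seed were 59.1% and 42.3%. Calls required an adjusted p (Benjamini-Hochberg, over all loci tested) under 0.05 and a log2 difference of 1 or more in either direction. The rule keeps both stages of each comparison below a 5th of the cotyledon mean and sets no direction between them. No test was made of the members as a set, so their counts stand beside those of all loci tested.

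The first question was whether the members continued to decrease once maturation had begun. In mid against early maturation, 77 of the 176 members tested were lower (43.8%) and 3 were higher (1.7%), whereas 14.7% of all loci tested were lower and 11.3% were higher. The median log2 difference of the members was -0.76, against -0.06 over all loci. The 77 members that fell had a median stage mean of 4.76 in early maturation and 0.775 in mid maturation. Of the 13 tested loci of cotyledon replicate 3, 1 was lower, so 76 of the 163 others were lower. Early maturation replicate 3 was the highest library of its stage for 98 of the 176 members (55.7%), beside 38.1% of all loci with a read. Without it, 69 members were lower (39.2%, beside 15.8% of all loci). Without early maturation replicate 2, 81 were lower (46.0%, beside 14.4%).

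Glyma.17G139500 had the largest decrease at this step. Its values were 54.2, 39.2 and 51.4 in early maturation and 0.743, 1.13 and 0 in mid maturation, after a cotyledon mean of 414 ± 33.8 (SD, n = 3). No mid maturation library reached any early maturation library. Its log2 difference between the stages was -4.98 (SE 0.393, limma adjusted p = 8.80e-10). Its late maturation values were 4.91, 0.380 and 0.220, so replicate 1 was the highest of that stage.

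Glyma.08G043600 had values of 16.0, 15.1 and 15.9 in early maturation and of 0, 0.678 and 0.434 in mid maturation. The groups did not overlap, and the log2 difference was -3.63 (SE 0.239, limma adjusted p = 6.12e-11). This locus had no read in the 3 dry seed libraries, and values of 6.11, 4.57 and 6.32 in seedlings.

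Glyma.07G155200 was among the 3 members that rose. Its values were 3.30, 3.24 and 3.58 in early maturation and 18.1, 10.2 and 6.51 in mid maturation. All 3 mid maturation libraries were higher, and they spread from 6.51 to 18.1. In limma the log2 difference was 1.42 (SE 0.263, limma adjusted p = 9.45e-05).

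Glyma.12G072200, with cotyledon values of 118.7, 118.6 and 119.1, rose from 5.11, 6.83 and 9.66 in early maturation to 14.9, 16.3 and 17.4 in mid maturation. Its groups did not overlap. The log2 difference was 1.10 (SE 0.261, limma adjusted p = 0.00111). It was 0.91 without early maturation replicate 1 and 0.87 with a pseudocount of 4, both below the limit of 1, while the adjusted p over all alternatives ranged from 1.09e-05 to 0.0114.

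In late against mid maturation, 55 of the 176 members were lower (31.2%) and 1 was higher (0.568%), whereas 23.6% of all loci tested were lower and 16.8% were higher. The median log2 difference was -0.55 for the members and -0.11 for all loci. With a pseudocount of 4, which weighs down differences between low values, the order of the shares called lower turned to 9.66% of the members and 13.8% of all loci. The 55 members had a median stage mean of 4.09 in mid maturation and 0.518 in late maturation. A further 76 members (43.2%) had a mean below 1 in both stages, as did 16.6% of all loci tested. On the log2(value + 1) scale such loci cannot reach the limit of 1, so their lack of a call is not a result. At this step 54 of the 163 loci and 1 of the 13 others were lower.

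Late maturation replicate 1 stood apart for these loci. It was the highest library of its stage for 107 of the 156 members with a read there (68.6%), and for 38.1% of all loci with a read. The members' median value was 0.545 in replicate 1, 0.190 in replicate 2 and 0.220 in replicate 3, and their share of the reads was 0.0248%, 0.0119% and 0.0147%. Replicate 1 had no read for 40 members, against 86 and 75 in the other two, although its 3843336 reads were the fewest of the stage. Without it, 58 members were lower (33.0%, beside 24.5% of all loci) and 1 was higher (0.568%, beside 17.4%) in late against mid maturation. The cause of its higher values was not tested.

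The largest decreases at this step were those of the 2 members with the highest cotyledon means. Glyma.20G077700 had cotyledon values of 812.6, 676.3 and 745.7, early maturation values of 46.2, 40.3 and 77.0, and mid maturation values of 103.5, 91.5 and 90.3. Its late maturation values were 11.99, 1.14 and 1.32. All late maturation libraries lay below all mid maturation libraries, with replicate 1 far above the other two. This amounted to a log2 change of -4.58 (SE 0.418, limma adjusted p = 2.89e-09), and -5.43 without late maturation replicate 1.

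Glyma.19G240800 had the highest cotyledon mean, at 1527 ± 185 (SD, n = 3), from values of 1675, 1587 and 1319. It had 211.0, 196.6 and 237.9 in early maturation and 69.1, 67.3 and 46.9 in mid maturation. The late maturation values were 19.9, 1.71 and 1.32, again with replicate 1 far above the others and without overlap between the stages. The log2 difference from mid to late maturation was -3.59 (SE 0.473, limma adjusted p = 7.52e-07), and -4.61 without late maturation replicate 1.

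Glyma.11G093800 was the single member that rose from mid to late maturation. Its values were 1.24, 1.36 and 0.868 in mid maturation and 4.63, 2.66 and 3.96 in late maturation, and the groups did not overlap. On the log2 scale this was a difference of 1.13 (SE 0.297, limma adjusted p = 0.00207). It was 0.99 without late maturation replicate 1 and 0.58 with a pseudocount of 4, both below the limit, with adjusted p from 7.29e-05 to 0.0108 over all alternatives.

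**Figure D4:**
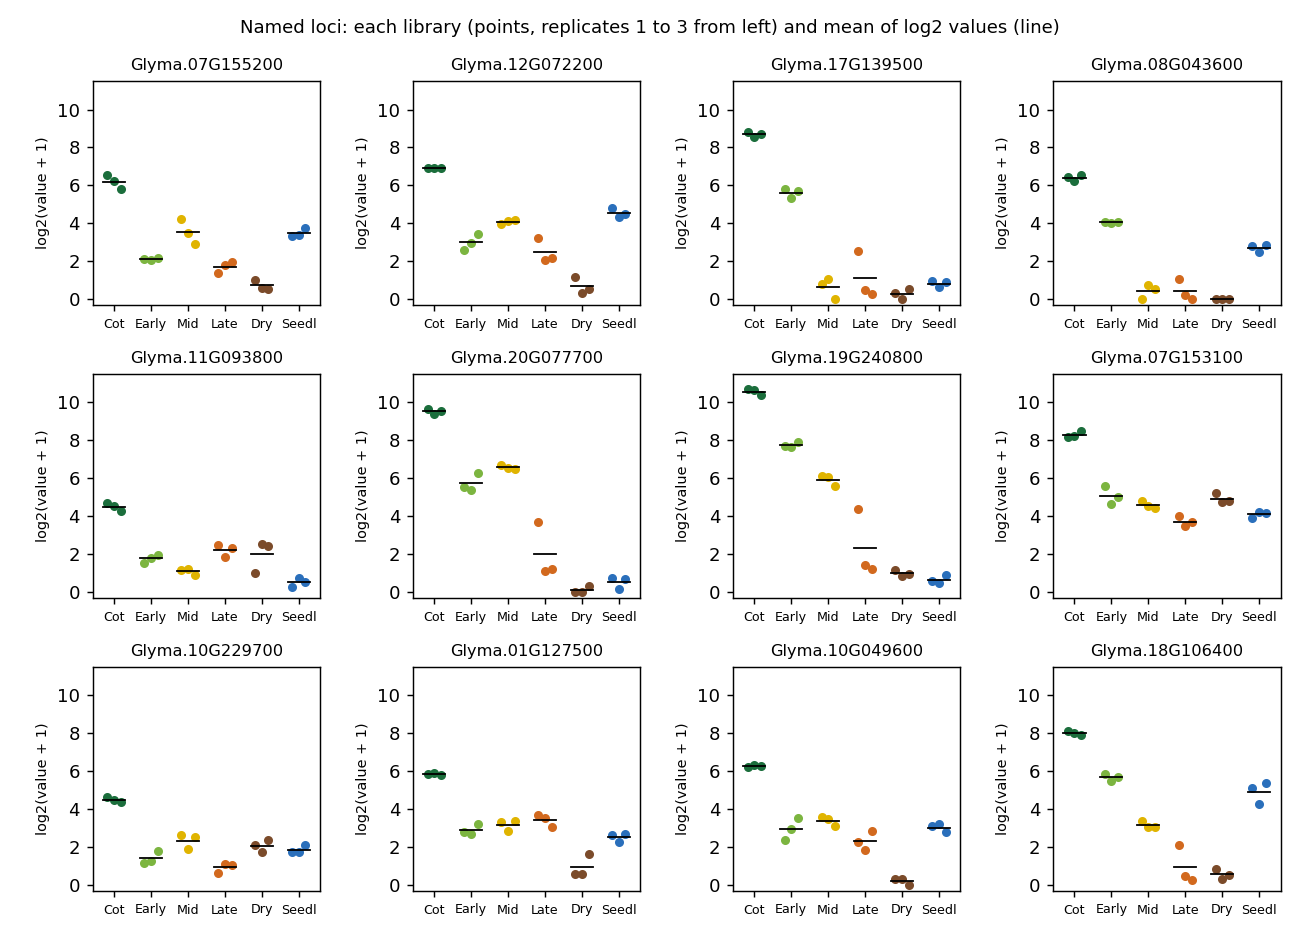
Values of 12 named members in every library as log2(value + 1), with points for replicates 1 to 3 from left to right within each stage and a line at their mean. The raised point of late maturation replicate 1 is visible for Glyma.19G240800 (19.9 against 1.71 and 1.32) and Glyma.20G077700 (11.99 against 1.14 and 1.32), and the higher seedling values for Glyma.18G106400 and Glyma.12G072200.

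In dry seed against late maturation, 19 of the 176 members were lower (10.8%) and 4 were higher (2.27%), whereas 14.5% of all loci tested were lower and 7.84% were higher. The median log2 difference was -0.18 for the members and -0.10 for all loci, and -0.04 and -0.09 without late maturation replicate 1, so the order of the medians rests on that library. At this step 129 members (73.3%) had a mean below 1 in both stages, against 27.5% of all loci. On the log2(value + 1) scale such loci could not be called. By edgeR on the recovered reads, 40 members were lower (22.7%) beside 19.7% of all loci, and with a pseudocount of 0.5 the shares were 18.2% and 18.3%. Which of the shares is the higher one therefore depends on the setting. All of the 23 called members were among the 163.

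Glyma.01G127500 had values of 11.99, 10.7 and 7.47 in late maturation and of 0.517, 0.528 and 2.10 in dry seed. The groups did not overlap, and the log2 difference was -2.49 (SE 0.247, limma adjusted p = 3.82e-08). Its earlier values varied little, with stage means of 6.63 in early and 8.27 in mid maturation, and thus lay between 6.63 and 10.04 in mean through maturation after a cotyledon mean of 56.9 ± 1.91 (SD, n = 3).

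Glyma.10G049600 had values of 3.82, 2.66 and 6.16 in late maturation and of 0.258, 0.264 and 0 in dry seed. All dry seed values were lower. The log2 difference was -2.10 (SE 0.252, limma adjusted p = 5.00e-07), and -0.96 with a pseudocount of 4, with adjusted p from 9.43e-08 to 0.00562 over all alternatives.

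Glyma.07G153100 was among the 4 members that were higher in dry seed. Its values were 14.99, 10.1 and 11.9 in late maturation and 35.9, 26.1 and 26.9 in dry seed, without overlap. In limma the log2 difference was 1.20 (SE 0.191, limma adjusted p = 1.86e-05). Its stage means were 34.1 in early maturation, 29.6 in dry seed and 16.4 in seedlings, below a cotyledon mean of 314 ± 34.2 (SD, n = 3).

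Glyma.10G229700 had values of 0.545, 1.14 and 1.10 in late maturation and of 3.36, 2.37 and 4.21 in dry seed. The groups did not overlap, and the log2 difference was 1.15 (SE 0.238, limma adjusted p = 0.000337). With a pseudocount of 4 it was 0.56, below the limit, and the adjusted p over all alternatives ranged from 7.03e-05 to 0.0176.

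The next question was whether any of these loci had higher levels in seedlings than in dry seed. In seedlings against dry seed, 91 of the 176 members were higher (51.7%) and 2 were lower (1.14%). Over all loci tested, 41.8% were higher and 19.8% were lower, so a rise at this step was common among all loci as well. The median log2 difference was 1.08 for the members and 0.58 for all loci. With a pseudocount of 4 the medians were 0.37 and 0.30 and the shares called higher were 19.9% and 26.3%, whereas edgeR gave medians of 3.57 and 0.90 and shares of 68.8% and 46.7%. All of the 91 members that rose were among the 163, and 0 of the 13 tested loci of replicate 3 were called in either direction. A mean below 1 in both stages was found for 62 members (35.2%) and for 6.92% of all loci.

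The 91 members that rose had seedling means from 1.02 to 32.4, with a median of 3.56, against a median of 0.0879 in dry seed. For 24 of them the dry seed libraries held no read. Their seedling level was 2.51% to 19.96% of their cotyledon mean, with a median of 9.37%, where the rule allows at most a 5th. For 64 of the 91 the seedling mean lay below the early maturation mean.

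Glyma.18G106400 had the largest rise. Its values were 0.775, 0.264 and 0.468 in dry seed and 33.6, 18.1 and 41.4 in seedlings, after 274.5, 262.2 and 241.8 at the cotyledon stage. The seedling libraries were all higher. The stages differed by a log2 value of 4.35 (SE 0.327, limma adjusted p = 5.15e-11). Early maturation values of 56.6, 43.7 and 51.8 overlapped none of the seedling values.

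Glyma.12G072200, which also rose from early to mid maturation, had values of 1.29, 0.264 and 0.468 in dry seed and of 27.0, 19.0 and 21.7 in seedlings. The groups did not overlap. The log2 difference was 3.85 (SE 0.261, limma adjusted p = 8.83e-12).

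The 2 members that were lower in seedlings had moderate dry seed levels. Glyma.11G093800 had values of 1.03, 4.75 and 4.44 in dry seed and of 0.204, 0.692 and 0.439 in seedlings, without overlap. On the log2 scale this was a difference of -1.48 (SE 0.297, limma adjusted p = 9.98e-05), and -0.70 with a pseudocount of 4, with adjusted p from 9.33e-08 to 0.00695 over all alternatives.

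Glyma.05G009000 had values of 8.27, 0 and 1.17 in dry seed and no read in the 3 seedling libraries. The groups overlapped at 0, and dry seed replicate 1 alone was high. Its log2 difference between the stages was -1.44 (SE 0.469, limma adjusted p = 0.00761). Without dry seed replicate 1 it was -0.56, and the adjusted p ranged up to 0.0926 over all alternatives, so the call rests on that library.

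Seedlings were also compared with early maturation. By the median of the members' stage means, these were the highest of the 5 other stages, at 1.60 and 3.42. By summed scaled values mid maturation lay above seedlings. Here 61 of the 176 members were lower in seedlings (34.7%) and 3 were higher (1.7%), whereas 22.8% of all loci tested were lower and 29.0% were higher. The median log2 difference was -0.66 for the members and 0.02 for all loci. With a pseudocount of 4 the shares called lower were 11.4% of the members and 15.9% of all loci, in the opposite order. The lower members included 59 of the 163 loci and 2 of the 13 others. The early maturation and seedling libraries of this comparison are also used in the comparisons above.

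Glyma.19G240800 had the largest decrease, from 211.0, 196.6 and 237.9 in early maturation to 0.509, 0.415 and 0.878 in seedlings. The log2 difference was -7.08 (SE 0.473, limma adjusted p = 1.06e-11). Glyma.20G077700 went from 46.2, 40.3 and 77.0 to 0.713, 0.138 and 0.615. This was a change of -5.19 on the log2 scale (SE 0.418, limma adjusted p = 2.39e-10). The 2 members with the highest cotyledon means were thus near the level of a few reads in both dry seed and seedlings.

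Glyma.12G072200 was higher in seedlings, at 27.0, 19.0 and 21.7 against 5.11, 6.83 and 9.66 in early maturation, which is a log2 change of 1.55 (SE 0.261, limma adjusted p = 1.51e-05). Glyma.07G155200 had values of 9.06, 9.41 and 12.4 in seedlings against 3.30, 3.24 and 3.58, which is a log2 change of 1.36 (SE 0.263, limma adjusted p = 8.15e-05). Neither pair of groups overlapped. Both loci were lower in late maturation and dry seed than in mid maturation, so their levels were higher again in seedlings after a low in dry seed. With a pseudocount of 4 the difference of Glyma.07G155200 was 0.95, below the limit, with adjusted p from 1.40e-09 to 0.00117 over all alternatives.

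**Figure D5:**
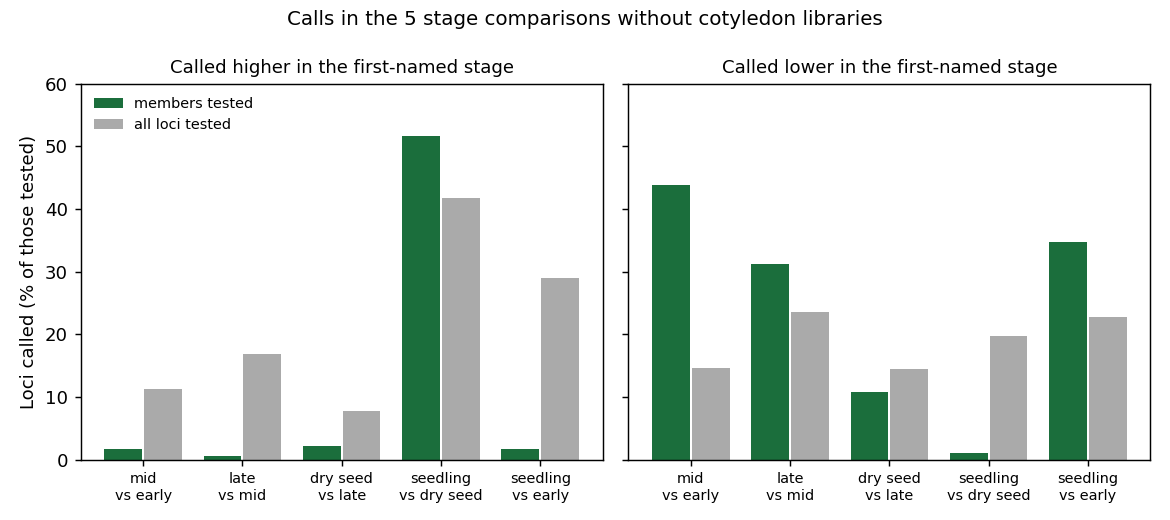
Share of the 176 tested members (green) and of all 36872 tested loci (grey) called higher (left) or lower (right) in the first-named stage of 5 comparisons. In mid against early maturation 43.8% of the members and 14.7% of all loci were called lower and the shares called lower in dry seed against late maturation were 10.8% and 14.5%, where edgeR on recovered reads gave 22.7% and 19.7%.

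Calls at separate steps fell on the same members in part. Of the 77 members that fell from early to mid maturation, 44 also rose from dry seed to seedlings, which is 57.1% of the former and 48.4% of the 91 that rose. Over all loci the same shares were 51.6% and 18.1%. Of the 55 that fell from mid to late maturation, 37 rose in seedlings (67.3% of the former and 40.7% of the latter), against 70.5% and 39.9% over all loci. Of the 77 and the 19 that fell from late maturation to dry seed, 6 were shared (7.79% and 31.6%), against 8.03% and 8.13% over all loci. The first-named shares of the members lay near those of all loci. The second-named shares have unlike base rates. From early to mid maturation 43.8% of the members tested and 14.7% of all loci fell, and from mid to late maturation 31.2% and 23.6%. The comparisons paired here share no libraries.

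By the number that the identifiers carry for the chromosome, members occurred on all 20 chromosomes. Over all loci, 180 of 51546 were members. Chromosome 8 held the most, with 18 members of 3486 loci (0.516%), and chromosome 17 the largest share, with 15 of 2445 (0.613%). Of these 15, 2 belonged to the 17 loci of replicate 3. Identifiers with the letter U in place of a number held 2 of 342 (0.585%). Differences between these shares were not tested. Chromosome 4 had the lowest share, with 4 of 2345 (0.171%). Consecutive identifiers were both members in 3 cases, named here after their values were seen. These were Glyma.06G004400 and Glyma.06G004500, with cotyledon means of 41.7 and 20.3, Glyma.10G277400 and Glyma.10G277500, with 29.6 and 17.1, and Glyma.02G281400 and Glyma.02G281500, with 33.6 and 30.5. The last pair belonged to the 17 loci of replicate 3. Whether neighbours are copies that share reads was not tested.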

How the data were processed

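The deposited files held 1 normalized signal value per locus and library. Per the submitters' processing notes the authors used the aligner Bowtie 0.12.7 and the count package edgeR 3.0.8. What genome build, annotation or counting method they used is not given in the sources used here. In each library the values were multiples of the value of 1 read, and dividing by it gave whole reads, to within 0.05, at 927826 of 927828 entries. Their scaling matched trimmed mean of M-values factors recomputed from these reads, with a relative difference of at most 1.61e-07.

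The members and lists were chosen with earlier results of these data known. The test was limma 3.58.1 in R 4.3.3, two-sided, on log2(value + 1) with a mean-variance trend, fitted to the 18 libraries together. It was also run on simulated data, where changes were placed only at loci with higher levels than most members had in the compared stages. That run cannot vouch for calls at low values. The log2(value + 1) scale understates changes of low values. Alternatives are given in the closing section, with edgeR 4.0.16 and DESeq2 1.42.0 on recovered reads among them. In each comparison and direction, named loci are the 2 called members with the largest log2 difference among those whose higher stage mean reached 2, with the 2 highest cotyledon means added. Floors of 3 reads reflect counting error alone, as reads copied by PCR are not separate molecules.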

Additional observations from a re-analysis of the deposited data

How the results depend on the processing

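Across 41 settings, 321 of 358 counts of members stayed within 1.5 times the reported count. For the named members, 559 of 570 log2 differences kept their direction and their call, 11 lost the call and 0 reversed. Many of these values could hardly move, so both tallies overstate stability. Leaving out a library of a stage outside the comparison, the replicate block and the fit without trend kept the log2 differences unchanged. Without cotyledon replicate 1, for example, mid against early maturation again had 3 higher and 77 lower. The rule chose 467 loci at 3 times and 53 at 10 times the other stages, 165 to 198 when 1 library was left out and 180 to 187 when a replicate number was left out. Higher and lower calls with a pseudocount of 4 were 1 and 23 in mid against early maturation, 0 and 17 in late against mid, 1 and 3 in dry seed against late, 35 and 0 in seedlings against dry seed, and 1 and 20 in seedlings against early maturation. The share of members called lower was then 13.1% beside 8.97% of all loci in the first of these and 1.70% beside 6.92% in the third. Of all loci, 6.97%, 12.3%, 4.83%, 26.3% and 19.2% were called higher in the 5 comparisons, and 15.8% were lower in seedlings against dry seed. With a pseudocount of 0.5, late against mid maturation had 2 higher, dry seed against late had 32 lower and seedlings against dry seed had 4 lower (all loci 18.3%, 18.3% and 20.8%). With no limit on the log2 difference the changed counts were 6 higher in mid against early, 3 higher and 90 lower in late against mid, 35 lower in dry seed against late, 6 lower in seedlings against dry seed, and 10 higher and 95 lower in seedlings against early maturation. The shares called lower were then 51.1% of members and 37.9% of all loci in late against mid, 19.9% and 29.6% in dry seed against late, and 54.0% and 37.4% in seedlings against early maturation. In seedlings against dry seed 3.41% of members and 29.6% of all loci were lower. Among all loci 24.2%, 29.2% and 39.9% were higher in the comparisons with a changed higher count, in the same order. By edgeR on recovered reads the changed counts were 5 higher in mid against early, 2 higher in late against mid, 40 lower in dry seed against late and 7 lower in seedlings against dry seed. Over all loci edgeR called 5690 higher and 6290 lower, 6986 and 10955, 3624 and 7251, 17211 and 8307, and 11994 and 9934 in the 5 comparisons. By DESeq2 the changed counts were 5 higher, 2 higher, 7 higher and 31 lower, 6 lower, and 9 higher. Over all loci the shares in the same order were 15%, 17.6%, 12.4% and 16%, 20.5%, and 35.2%. The 31 lower members were 17.6% of those tested, near the 16% of all loci. Upper-quartile scaling gave 5 lower in seedlings against dry seed (2.87%, beside 26.4% of all loci), and moved the median log2 difference of all loci there from 0.58 to 0.28. Median-of-ratios scaling moved that of seedlings against early maturation from 0.02 to 0.21. With 1 library left out, members called higher in mid against early maturation numbered 2 to 5 and in seedlings against early maturation 3 to 5 (5 without early maturation replicate 3 in both), and members lower in seedlings against dry seed 1 to 3 (1 without dry seed replicate 1). Members chosen without cotyledon replicate 3, a setting added after seeing the data, gave 2 higher in late against mid maturation (1.19%, beside 16.8% of all loci). Replicate numbers showed no pairing of libraries between stages. Among 15 pairs with the same number, 0 had a correlation of deviations above 0.1 (-0.154 to 0.0414), and 8 of 18 libraries correlated best with their own number. With the replicate block, mid against early maturation had 3 higher and 77 lower, seedlings against dry seed 91 higher and 2 lower, and no count of members in the 5 comparisons changed. Depth and the scaling between libraries together set the floor of 3 reads, at 0.701 to 0.791 in dry seed and up to 1.30 in mid maturation.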
